A study of Mus musculus with 10 samples.

Results

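Microglia identity transcription factors are the DNA-binding proteins that make and keep a brain macrophage a microglial cell. The 9 genes described here were taken by symbol from the deposited table: Spi1, Irf8, Sall1, Maf, Mef2a, Mef2c, Runx1, Cebpa and Bhlhe41. All 9 were among the 19782 genes of the table and among the 12505 that passed the filter on low counts. RNA was measured in 10 Smart-Seq libraries of microglia sorted as CD45low CD11b+ cells from mouse hippocampus. The 5xFAD repopulated group (3 libraries) came from 5xFAD mice that ate PLX3397 in their chow at 290 mg/kg for 1 month from 4 months of age (it blocks the CSF1 receptor and so depletes microglia), and then normal diet for 1 month while microglia returned. The 5xFAD control group (3 libraries) came from 5xFAD mice on normal diet, and the WT group (4 libraries) from wild-type mice on normal diet. The ages of the control and WT mice, and any pooling of animals, were not given in any source used. In 5xFAD mice human transgenes with familial Alzheimer disease mutations are driven by a neuronal promoter, so microglia meet amyloid that neurons made. A repopulated WT group was not analysed here. Nothing in the labels says that libraries of 1 group are separate animals, so the p-values rest on the spread between libraries, part of which could be technical. Levels of Y-linked transcripts differed between libraries within the control and WT groups, so the libraries of those groups are not all repeats of 1 animal.

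Microglia arise from yolk sac progenitors, and their programme is built in layers. Runx1, PU.1 (the product of Spi1) and C/EBP alpha act in myeloid progenitors, PU.1 stays bound across the macrophage genome, and Irf8 joins it at composite DNA sites. Sall1 is largely restricted to microglia among macrophages and depends on TGF-beta signalling in the brain, while Mef2, Maf and Bhlhe factors take part in the mature, homeostatic state. PLX3397 removes most microglia, and after its withdrawal the surviving cells refill the tissue, so repopulated microglia are largely the progeny of cells that survived depletion.

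Levels are CPM, the share of a library's counts scaled to a fixed total after TMM correction of library sizes, as mean ± SD with n = 3, 3 and 4 for repopulated, control and WT. The quasi-likelihood test of edgeR gave fold changes, standard errors and p-values, adjusted by Benjamini-Hochberg over all 12505 genes, and a gene is called at an adjusted p under 0.05. The libraries held 18501136 to 23286814 estimated counts. The summed level of 8 microglia markers, Sall1 and Tmem119 among them, was 38750 to 51840 CPM in repopulated, 45590 to 50850 CPM in control and 44360 to 52100 CPM in WT libraries, and none of the 8 was at 0. WT 3 stood apart, with the highest neuron, astrocyte, oligodendrocyte and erythrocyte marker sums (64.9, 555, 106 and 281 CPM). Control 2 also stood apart, with the highest summed level of 9 neutrophil markers, 335 CPM, against 19.2 CPM in control 1 and 25.9 CPM in control 3. That sum was 67.1 to 173 CPM in repopulated and 32.8 to 259.5 CPM in WT libraries. In control 1, control 3 and WT 2, 4 Y-linked genes had almost no transcripts (5.12 to 16.0 CPM of unscaled totals) and at 342 to 484 CPM in the other 7 libraries. All repopulated libraries were of the second kind, so this difference is partly confounded with the groups.

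The 9 genes spanned a wide range of levels. On the deposited TPM scale, which corrects for gene length, the mean over all 10 libraries was 216 TPM for Irf8 and 190.0 TPM for Bhlhe41. Mef2a (117 TPM), Sall1 (109.6 TPM), Maf (108 TPM) and Mef2c (107 TPM) lay close together, followed by Spi1 (92.1 TPM), Cebpa (73.0 TPM) and Runx1 (18.1 TPM). The genes also differed in how much libraries of a group differed from each other. The SD of log2 CPM within groups was 0.09 for Mef2c, 0.12 for Bhlhe41 and 0.13 for Runx1, at percentiles 1.2, 3.6 and 6.2 of all tested genes. It was 0.17 for Mef2a, 0.18 for Sall1, 0.19 for Irf8, 0.28 for Maf and 0.35 for Cebpa. Spi1 was the most variable of the 9 at 0.95, percentile 90.2. The plot of levels by library shows this as tight clusters for Mef2c and Runx1 and wide scatter for Spi1.

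**Figure D1:**
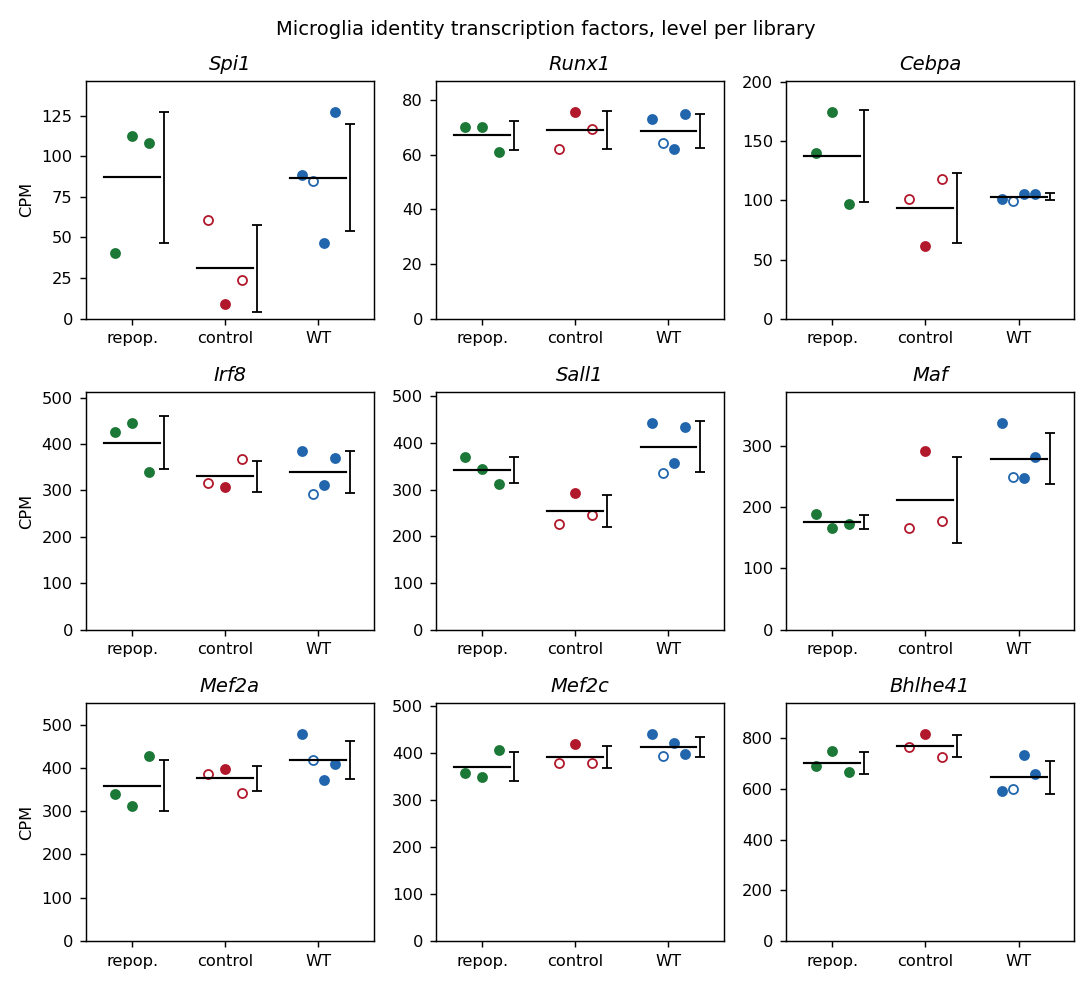
Level of each of the 9 genes in each library, in CPM on linear axes from 0. Circles are libraries (3 repopulated, 3 control, 4 WT), horizontal bars are group means, error bars are SD, and open circles mark the 3 libraries low in Y-linked transcripts; all 3 control libraries lie below all other libraries for Sall1, and all 3 repopulated libraries lie below all WT libraries for Maf.

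The first comparison asked whether amyloid-exposed microglia on normal diet held the identity factors at the WT level. Sall1, a zinc finger repressor that marks microglia, fell in 5xFAD control microglia, and the other 8 genes did not pass the test. Of the 9 genes 0 were called higher and 1 lower (11.1%), against 18.1% of all 12505 genes called in either direction and 8.04% called lower. Without control 1 the share of all genes was 10.2%, and without the 3 libraries low in Y-linked transcripts it was 8.57%, each with 1 of the 9 called, in both cases Spi1 in place of Sall1. A count of 1 among 9 is near these shares. The median log2 fold change of the 9 was -0.14, against -0.06 over all tested genes.

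Sall1 (Entrez 58198, GRCm38.p6 chromosome 8, 89027242 to 89044162) is given first because it is the only one of the 9 that passed. RefSeq gives 3 start sites for it, and the 250 bases before the outermost one, chr8:89044163-89044412 on the minus strand, are shown as the sequence context of the gene that moved. The letters are the RefSeq ones on GRCm38.p6, 5′ to 3′ along the gene, all in lower case because none of the motifs searched in these promoters matched:
Sall1: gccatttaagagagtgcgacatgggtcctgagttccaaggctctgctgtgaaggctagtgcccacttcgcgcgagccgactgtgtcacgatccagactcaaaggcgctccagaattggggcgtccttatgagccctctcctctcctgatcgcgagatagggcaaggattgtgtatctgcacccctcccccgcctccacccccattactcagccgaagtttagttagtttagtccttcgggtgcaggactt

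Sall1 had 227, 292 and 245 CPM in control libraries, against 442, 335, 358 and 434 CPM in WT libraries. Every control library lay below every WT library. The means were 255 ± 33.8 CPM in control and 392 ± 53.9 CPM in WT microglia, a 1.54-fold lower level (log2 fold change -0.62, SE 0.14, 95% interval -0.93 to -0.32, edgeR adjusted p = 0.00772). Among libraries with near absent Y-linked transcripts, Sall1 had 227 and 245 CPM in control 1 and 3 and 335 CPM in WT 2, and among the others 292 CPM in control 2 and 358 to 442 CPM in WT 1, 3 and 4. In each of these 2 classes the control libraries were again the lower ones. The edgeR adjusted p was 0.0322 with Y-linked status as a term, 0.0558 without control 1, and 0.167 without the 3 libraries of the first class, where control 2 was the only control library and was assumed to vary like the other groups. The log2 fold change was -0.50, -0.55 and -0.48 in these 3 fits, and between -0.73 and -0.48 over all 22 alternatives. In a bulk sample fewer cells with a transcript and less RNA per cell cannot be told apart.

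By the profile over the 10 libraries the genes nearest to Sall1 were Sh2b3 and Tnfrsf1b. Among 6237 genes of similar spread, their centred log2 CPM differed from that of Sall1 by a root mean square of 0.06 and 0.07, where the SD of Sall1 itself was 0.32.

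Spi1 (Entrez 20375, chromosome 2, 91082374 to 91115759), which encodes the pioneer factor PU.1, had 60.7, 8.92 and 23.5 CPM in control libraries, against 88.3, 85.1, 46.4 and 127 CPM in WT libraries. Control 2 and 3 lay below every WT library, and control 1 lay within the WT range. The group means were 31.0 ± 26.7 CPM in control and 86.8 ± 33.1 CPM in WT microglia, and with this scatter the log2 fold change of -1.48 had a 95% interval of -3.03 to 0.07 (edgeR adjusted p = 0.173). The call depended on the setting: the adjusted p was 0.0262 with limma-voom, 0.0385 without control 1 and 0.0416 without the 3 libraries low in Y-linked transcripts, where control 2 stood alone. Control 2, the lowest in Spi1, was the highest in neutrophil markers, cells that express Spi1 themselves, and their part in its level was not tested.

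Maf (Entrez 17132, chromosome 8, 115703253 to 115706894), which encodes the leucine zipper factor c-Maf, had 166, 292 and 177 CPM in control libraries, against 337, 249.5, 247 and 282 CPM in WT libraries. Control 1 and 3 lay below all WT libraries, while control 2 was above 3 of the 4. Its log2 fold change was -0.40 (95% interval -0.79 to -0.01, edgeR adjusted p = 0.152). Without control 2 it was -0.70 with an edgeR adjusted p of 0.00748, so passing the threshold depended on control 2. That library was the only control one not low in Y-linked transcripts, so leaving it out also changed the balance of Y-linked status. Among libraries of its kind it had 292 CPM, against 337, 247 and 282 CPM in WT 1, 3 and 4. Without the 3 libraries low in Y-linked transcripts the log2 fold change was 0.03, resting on control 2 alone. Control 2 also had the highest summed level of 9 markers of border macrophages, which express Maf as well (163 CPM, against 65.6 to 138 CPM in the other 9 libraries); neutrophil markers were highest in control 2 as well (335 CPM), and the part of either cell type in the Maf level was not tested.

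Bhlhe41 (Entrez 79362, chromosome 6, 145858243 to 145865420), a basic helix-loop-helix repressor that shares targets with Bhlhe40, had 765, 816 and 728 CPM in control libraries, against 589.9, 599, 733 and 660.1 CPM in WT libraries. The groups overlapped only through WT 3. The log2 fold change was 0.25 (95% interval -0.02 to 0.52, edgeR adjusted p = 0.183). On the deposited TPM scale, whose library totals are not adjusted by TMM, the order turned round, with 185 ± 15.3 TPM in control and 196 ± 14.3 TPM in WT microglia. The TMM factors were 0.913 to 0.917 in control and 1.02 to 1.12 in WT libraries.

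The remaining 5 genes had edgeR adjusted p-values of 0.466 to 0.971 in control against WT microglia. Irf8 (Entrez 15900, chromosome 8, 120736358 to 120756694), the interferon regulatory factor that pairs with PU.1, averaged 330.6 ± 33.04 CPM in control and 339 ± 45.0 CPM in WT microglia (log2 interval -0.34 to 0.27). Runx1 (Entrez 12394, chromosome 16, 92601466 to 92826074), a factor of blood cell emergence, averaged 69.0 ± 6.84 CPM in control and 68.5 ± 6.29 CPM in WT microglia (interval -0.27 to 0.29). Cebpa (Entrez 12606, chromosome 7, 35119293 to 35121928), a myeloid lineage factor, averaged 93.5 ± 29.3 CPM in control and 103 ± 2.99 CPM in WT microglia (interval -0.59 to 0.31). The WT libraries agreed closely on Cebpa, at 99.6 to 106 CPM, while the control libraries ran from 61.2 to 119 CPM. Mef2a (Entrez 17258, chromosome 7, 67231163 to 67376456) and Mef2c (Entrez 17260, chromosome 13, 83504017 to 83667079), MADS-box factors of the homeostatic state, had log2 intervals of -0.46 to 0.14 and -0.33 to 0.18.

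**Figure D2:**
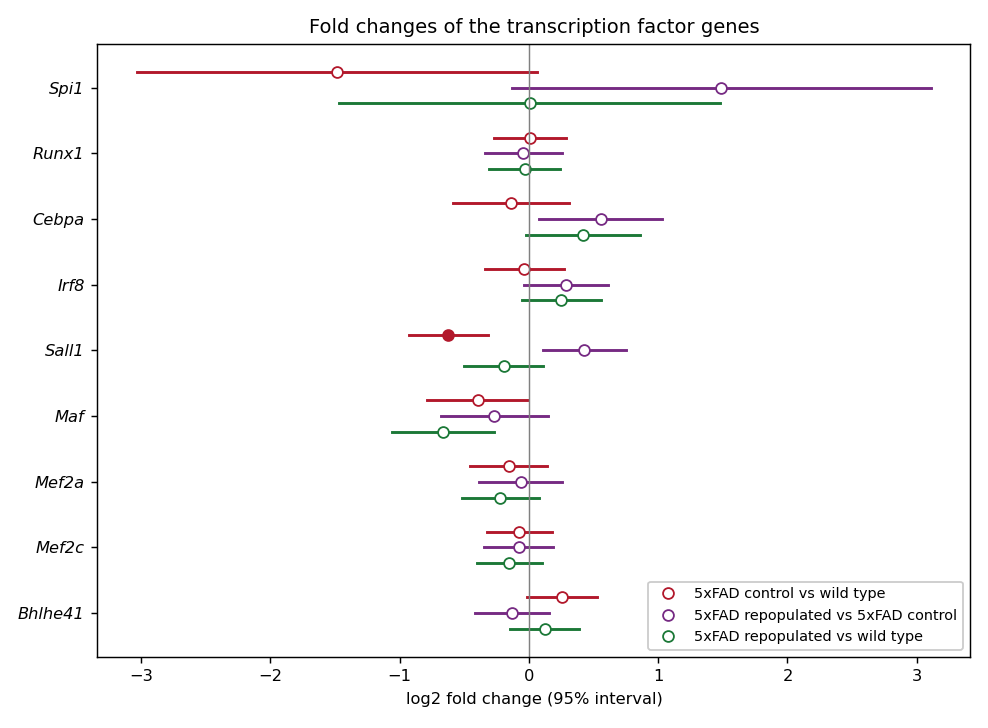
log2 fold change of each of the 9 genes (rows) in the 3 comparisons (colours), with 95% intervals as lines; filled points are called at an adjusted p under 0.05. The only filled point is Sall1 in control against WT microglia, and the widest intervals are those of Spi1.

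The second comparison asked whether repopulated 5xFAD microglia differed in these factors from 5xFAD microglia that were never depleted. None of the 9 genes was called by edgeR, by DESeq2 or by limma-voom, and 2 (Sall1 and Cebpa) had an unadjusted p under 0.05. Of the 12505 tested genes edgeR called 0.568% and limma-voom 0.84%, and DESeq2 called 6.52% of the 10002 genes that it tested. A count of 0 among 9 is near the background. The share called by edgeR ranged from 0% without repopulated 2 to 2.66% without WT 3 when single libraries were left out. The median log2 fold change of the 9 was -0.04, against -0.001 over all tested genes.

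Sall1 had 369, 345 and 313 CPM in repopulated libraries, against 227, 292 and 245 CPM in control libraries. The 3 repopulated libraries lay above the 3 control libraries without overlap. The means were 342 ± 28.4 CPM in repopulated and 255 ± 33.8 CPM in control microglia, a ratio of 1.34 (log2 fold change 0.43, SE 0.15, 95% interval 0.11 to 0.75), with an edgeR adjusted p of 0.162. The only control library that matched the repopulated ones in Y-linked transcripts, control 2 at 292 CPM, was also the nearest to them. With Y-linked status as a term the log2 fold change was 0.23, and without the 3 libraries low in Y-linked transcripts it was again 0.23, resting on control 2 alone.

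Cebpa had 140.4, 175 and 97.3 CPM in repopulated libraries, against 101, 61.2 and 119 CPM in control libraries, and the groups overlapped. Its log2 fold change was 0.56 (95% interval 0.08 to 1.03, edgeR adjusted p = 0.204). Spi1 had 40.7, 112 and 108 CPM in repopulated libraries, against 60.7, 8.92 and 23.5 CPM in control libraries. Repopulated 2 and 3 were above every control library, and repopulated 1 was below control 1. The log2 fold change of Spi1 was 1.49 (95% interval -0.13 to 3.11, edgeR adjusted p = 0.304).

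Spi1 and Cebpa are the 2 most GC-rich transcripts of the 9, with 58.9% and 62.6% GC, percentiles 94.4 and 99.1 of the tested genes. The libraries differed in how read yield depended on GC. The slope of a library, in log2 units per 10 points of GC, was 0.08, 0.27 and 0.01 in repopulated, -0.11, -0.38 and -0.04 in control, and 0.23, -0.11, -0.09 and 0.14 in WT libraries. All 3 control libraries had negative slopes and all 3 repopulated libraries positive ones. Control 2, with the lowest slope, also had the lowest Spi1 and Cebpa, and repopulated 2, with the highest slope, had the highest Cebpa. Within each 5xFAD group Cebpa rose in the order of the slopes. It had 61.2, 101 and 119 CPM in control 2, 1 and 3, and 97.3, 140.4 and 175 CPM in repopulated 3, 1 and 2. Spi1 did not follow the order of the slopes within any group. Cebpa stayed at 99.6 to 106 CPM in WT libraries of positive and negative slope. Repopulated 1, with a positive slope, had less Spi1 than control 1, with a negative one (40.7 against 60.7 CPM). Whether GC caused the differences in these levels was not tested. With a correction for GC and length in each library the log2 fold change for repopulated against control was 0.13 for Cebpa (adjusted p = 0.819), 1.19 for Spi1 (adjusted p = 0.44) and 0.29 for Sall1 (adjusted p = 0.341). The same correction left Sall1 lower in control than in WT microglia (log2 fold change -0.56, adjusted p = 0.00654).

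**Figure D3:**
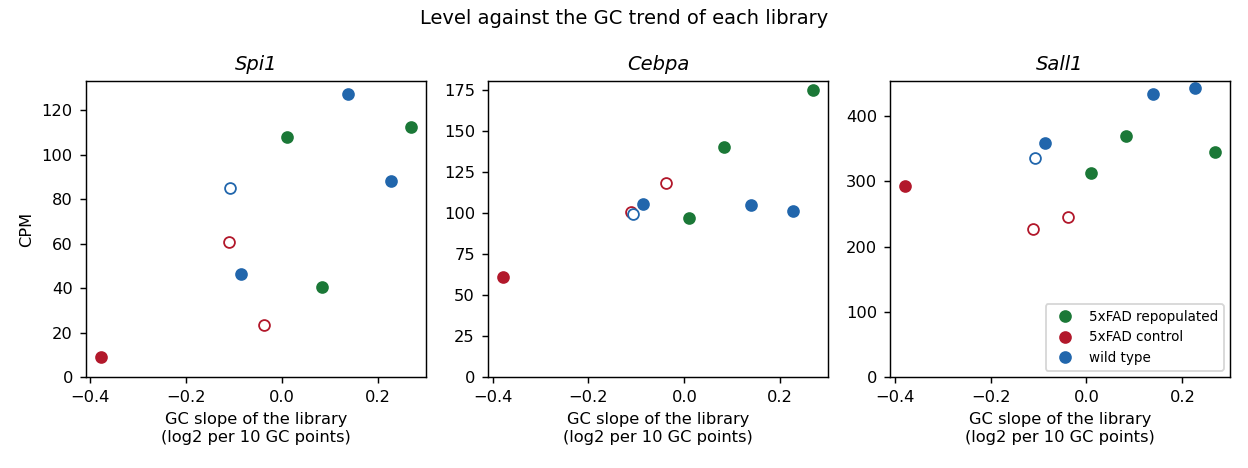
CPM of Spi1, Cebpa and Sall1 (vertical, linear from 0) against the GC slope of each library (horizontal, log2 units per 10 points of GC); each circle is a library, coloured by group, and open circles have near absent Y-linked transcripts. Control 2, at a slope of -0.38, is lowest for Spi1 and Cebpa, while for Sall1 control 1 and 3 lie below the WT libraries of similar slope.

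The remaining 6 genes had edgeR adjusted p-values of 0.333 to 0.908 in repopulated against control microglia. Irf8 averaged 403 ± 56.2 CPM in repopulated and 330.6 ± 33.04 CPM in control microglia, with a log2 interval of -0.04 to 0.62. Maf averaged 176 ± 11.7 CPM in repopulated and 212 ± 69.7 CPM in control microglia, with an interval of -0.68 to 0.15. Mef2a (interval -0.38 to 0.25), Mef2c (-0.35 to 0.19) and Runx1 (-0.34 to 0.25) had intervals that exclude a 1.5-fold change in either direction. Bhlhe41 averaged 702 ± 44.0 CPM in repopulated and 769 ± 44.1 CPM in control microglia, and its interval of -0.42 to 0.16 also excludes a 1.5-fold change.

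The third comparison set repopulated 5xFAD microglia against WT microglia that had met neither amyloid nor PLX3397. None of the 9 genes was called by edgeR or limma-voom, DESeq2 called 1 (Maf), and 1 (Maf again) had an unadjusted p under 0.05. The share of all tested genes called was 4.18% by edgeR, 4.27% by limma-voom and 5.93% by DESeq2 (of the 13484 genes that it tested). A count of 0 or 1 among 9 is near these shares. The median log2 fold change of the 9 was -0.03, against -0.02 over all tested genes.

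Maf had 189, 167 and 172 CPM in repopulated libraries, against 337, 249.5, 247 and 282 CPM in WT libraries. All 3 repopulated libraries lay below all 4 WT libraries. The means were 176 ± 11.7 CPM in repopulated and 279 ± 41.9 CPM in WT microglia, a 1.58-fold lower mean with a log2 fold change of -0.66 (SE 0.18, 95% interval -1.06 to -0.27). The edgeR adjusted p of 0.0607 missed the threshold. Over the 22 alternatives the log2 fold change stayed between -0.78 and -0.55 with adjusted p-values of 0.00837 to 0.253, and 9 of the 22 passed, among them DESeq2 (0.0127), the GC and length correction (0.0285) and the fit without the 3 libraries low in Y-linked transcripts (0.0322). Border macrophage markers summed to 65.6 to 114 CPM in repopulated and 75.8 to 138 CPM in WT libraries, and their part in the Maf level was not tested.

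Sall1 in repopulated microglia lay between the other groups. It averaged 342 ± 28.4 CPM in repopulated and 392 ± 53.9 CPM in WT microglia, with overlapping libraries and a log2 interval of -0.50 to 0.11 (edgeR adjusted p = 0.593). Control, repopulated and WT was thus its order from low to high, and of the neighbouring groups in that order neither control and repopulated nor repopulated and WT differed past the threshold. For Maf the order from low to high was repopulated, control and WT, with no neighbours past the threshold. For Spi1 the means of repopulated and WT microglia were 87.1 ± 40.2 and 86.8 ± 33.1 CPM, and the log2 interval of -1.47 to 1.48 leaves large differences possible either way. Irf8, Cebpa, Mef2a, Mef2c, Runx1 and Bhlhe41 had edgeR adjusted p-values of 0.374 to 0.951 in this comparison. By CPM the control group had the lowest mean of the 3 for Spi1, Irf8, Sall1 and Cebpa. By TPM it had the lowest mean for 8 of the 9 genes, all except Maf. TPM are not adjusted by TMM, whose factors were 0.913 to 0.917 in control and 0.972 to 1.12 in the other libraries. The share of all genes lowest in control by TPM was not counted, so the 8 are no sign of a trait of these genes. The order of the 3 groups was the same by CPM and TPM for 4 genes (Irf8, Sall1, Maf and Cebpa).

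Promoters of these genes were searched for the short motifs that their own families bind, since such factors often act on each other's genes. RefSeq windows from 250 bases before to 50 after a start site were found for 7 of the 9 genes, 13 windows in all, and those of Spi1 and Maf were not used here. Both strands were searched for GAGGAAGT (PU.1), GAAANNGAA (interferon regulatory factors), TGCTGAC (Maf), TGTGGT (Runx), TTGCGCAA (C/EBP), CACGTG (the E-box of Bhlhe factors) and the Mef2 consensus by name. The E-box was found in 2 of the 13 windows, Runx and Mef2 in 1 each and the others in 0. Among 32851 windows of the same length, 7.15% held the E-box, 16.8% the Runx motif, 0.557% the Mef2 consensus, 3.2% the PU.1, 8.56% the interferon regulatory factor, 4.67% the Maf and 0.183% the C/EBP motif. The E-box windows are shown, because Bhlhe41 encodes a factor that binds this motif and Runx1 is the other gene that holds it. They are the 250 bases before the start site, chr6:145865421-145865670 for Bhlhe41 and chr16:92826075-92826324 for the outer start of Runx1, both on the minus strand of GRCm38.p6 and written along the gene, with the E-box in capitals:
Bhlhe41: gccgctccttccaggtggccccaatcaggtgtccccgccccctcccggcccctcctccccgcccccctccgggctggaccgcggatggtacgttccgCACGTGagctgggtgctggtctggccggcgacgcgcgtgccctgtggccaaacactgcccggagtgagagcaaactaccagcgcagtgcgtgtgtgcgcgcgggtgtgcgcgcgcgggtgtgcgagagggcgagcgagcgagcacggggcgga
Runx1: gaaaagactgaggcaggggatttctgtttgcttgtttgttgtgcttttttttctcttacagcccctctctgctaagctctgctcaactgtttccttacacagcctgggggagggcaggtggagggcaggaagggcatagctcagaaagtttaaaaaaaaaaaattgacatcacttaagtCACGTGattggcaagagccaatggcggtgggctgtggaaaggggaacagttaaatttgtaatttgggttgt

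Counted from the start site, the E-box begins at position -153 in Bhlhe41 and at -71 in Runx1. The Runx motif occurs on the opposite strand at positions 29 and 37 of the same Runx1 window, just past the start site, and the Mef2 consensus spans the start site of 1 Mef2a window from position -2. A match is a description of letters, and both E-box genes were among the 3 with the smallest spread within groups and passed in no comparison.

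Paralogues and partners of the 9 formed a list of 28 genes, of which 24 were tested, and in control against WT microglia 2 were higher and 4 lower (25.0%, against 18.1% of all tested genes), with a median log2 fold change of -0.27. The higher ones were Bhlhe40 and Maff. The lower ones were Irf4, Irf1, Sall2 and Cebpd, of which the last 3 were named after their values were seen.

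Bhlhe40 (Entrez 20893, chromosome 6, 108660629 to 108666925), the paralogue of Bhlhe41 and a stress- and cytokine-responsive repressor, was almost silent in WT microglia. It had 39.7, 20.5 and 46.7 CPM in control libraries, against 0.193, 0.712, 0.0486 and 0.719 CPM in WT libraries. These WT values rest on 4, 15, 1 and 16 counts. Bhlhe40 rose 83-fold in control microglia (log2 fold change 6.38, SE 0.46, edgeR adjusted p = 3.96e-07), with no overlap between the groups. In repopulated libraries it had 23.7, 25.8 and 30.5 CPM, which was 62.2-fold above WT (edgeR adjusted p = 1.16e-06) and did not pass against control (log2 fold change -0.42, adjusted p = 0.582). Per length the paralogues remained far apart: Bhlhe40 was at 14.2 ± 1.36 TPM in repopulated, 17.0 ± 6.21 TPM in control and 0.258 ± 0.209 TPM in WT microglia, and Bhlhe41 at 187 ± 19.0, 185 ± 15.3 and 196 ± 14.3 TPM in the same order.

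**Figure D4:**
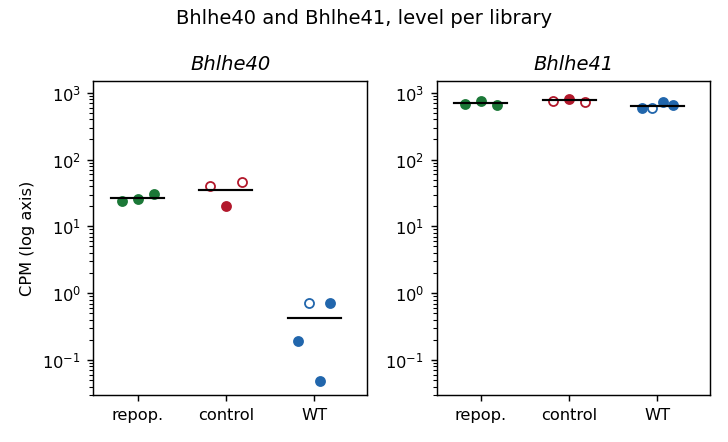
CPM on log axes of Bhlhe40 and its paralogue Bhlhe41 in each library; circles are libraries, bars are group means, and open circles have near absent Y-linked transcripts. Bhlhe40 is under 1 CPM in all 4 WT libraries and between 20.5 and 46.7 CPM in all 5xFAD libraries, while Bhlhe41 stays between 589.9 and 816 CPM throughout.

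Maff (Entrez 17133, chromosome 15, 79346621 to 79359078), a small Maf protein without its own activation domain, had 17, 18 and 24 counts in repopulated and 40, 31 and 53 counts in control libraries, against 0 in all 4 WT libraries. Taking 3 counts over the 4 WT libraries together as the floor, it was at least 24.6-fold higher in repopulated microglia and in control microglia at least 57.0-fold higher, bounds that cover counting error only. The call for repopulated against WT was lost without the 3 libraries low in Y-linked transcripts (edgeR adjusted p = 0.0762).

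Irf4, an interferon regulatory factor that can stand in for Irf8 at PU.1 sites, fell 2.82-fold in control microglia, at 2.77 ± 1.26 CPM against 7.83 ± 1.33 CPM in WT (edgeR adjusted p = 0.00823). Irf1, an interferon-induced activator, was at 47.8 ± 5.87 CPM in control and 65.7 ± 5.53 CPM in WT microglia. Sall2, a paralogue of Sall1, was at 9.07 ± 1.01 CPM in control and 14.4 ± 2.75 CPM in WT microglia. Both passed only narrowly, with adjusted p-values of 0.045 and 0.038. Cebpd, a C/EBP factor of acute inflammation, was at 5.497 ± 0.966 CPM in control and 12.8 ± 5.12 CPM in WT microglia. With Y-linked status as a term 3 of the 24 were called in place of 6.

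In repopulated against control microglia 0 of these 24 were called by edgeR or limma-voom and 1 by DESeq2, with 5 at an unadjusted p under 0.05, and the median log2 fold change was 0.22. The shares of all tested genes were 0.568% by edgeR, 0.84% by limma-voom and 6.52% by DESeq2 (of the 10002 genes that it tested). Mef2d, the Mef2 paralogue, was at 70.0 ± 18.6 CPM in repopulated and 41.1 ± 4.86 CPM in control microglia (edgeR adjusted p = 0.123). Irf3, the factor downstream of nucleic acid sensing, was at 52.4 ± 7.40 CPM in repopulated and 37.3 ± 4.09 CPM in control microglia (adjusted p = 0.162). In repopulated against WT microglia 2 of the 24 were called, Bhlhe40 and Maff, both higher (8.33%, against 4.18% of all tested genes).

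A wider list of 63 other transcription factors of macrophages had 57 tested genes. In control against WT microglia 7 were higher and 11 lower (31.6%, against 18.1% of all tested genes), with a median log2 fold change of -0.19. Hif1a, the hypoxia-inducible factor, rose 4.49-fold, at 388 ± 35.9 CPM in control against 86.5 ± 8.77 CPM in WT microglia. Atf3, a stress-induced leucine zipper factor, rose 2.98-fold, and Egr1, an immediate early factor, rose 2.97-fold (edgeR adjusted p = 0.00134). In repopulated against control microglia 0 of the 57 were called by edgeR, 4 by DESeq2 and 2 by limma-voom, with 15 at an unadjusted p under 0.05. Of all tested genes edgeR called 0.568%, DESeq2 6.52% (of its 10002) and limma-voom 0.84%, so the DESeq2 count is near its background. Hif1a was at 241 ± 41.4 CPM in repopulated microglia, with an adjusted p of 0.0517 against control, and it was 2.79-fold above WT. In repopulated against WT microglia 4 were higher (Ets2, Egr1, Atf3 and Hif1a) and 1 lower (Klf3), of which Ets2 and Klf3 were named after their values were seen. This is 8.77% of the 57, against 4.18% of all tested genes.

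Homeostatic genes are the surface receptors and enzymes that the programme maintains. Of 35 homeostatic microglial genes 2 were higher and 13 lower in control against WT microglia (42.9%, against 18.1% of all tested genes), with a median log2 fold change of -0.16. Tmem119, a surface protein of resident microglia, fell 2.45-fold, at 640.1 ± 121 CPM in control against 1570 ± 291 CPM in WT microglia (edgeR adjusted p = 0.000137). Crybb1, a crystallin gene of mature microglia, fell 2.73-fold and Selplg, the P-selectin ligand gene, 1.99-fold. In repopulated against control microglia 1 of the 35 was called (2.86%, against 0.568% of all tested genes). It was Tmem119, 1.85-fold higher at 1181 ± 85.9 CPM against 640.1 ± 121 CPM in control (edgeR adjusted p = 0.0468). That call ended under 10 of 22 alternatives, with adjusted p-values up to 0.267. In repopulated against WT microglia 3 were lower (8.57%, against 4.18% of all tested genes). They were Cx3cr1, Crybb1 and Ecscr, the first of them named after its values were seen.

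Of 44 disease-associated genes, which microglia turn on near plaques, 44 were higher in control against WT microglia (100%, against 18.1% of all tested genes). Their median log2 fold change was 3.09. This list was compiled with earlier results of these data known, so its count is no independent evidence of direction. In repopulated against WT microglia all 44 were again higher (100%, against 4.18% of all tested genes), with a median of 2.48. In repopulated against control microglia 6 were lower (13.6%, against 0.568% of all tested genes), with a median of -0.425. Igf1, the growth factor gene, was at 127 CPM in repopulated, 374 CPM in control and 5.31 CPM in WT microglia. Mamdc2, an extracellular matrix gene, was at 40.4, 86.0 and 5.13 CPM in the same groups, and Gas2l3, a cytoskeletal linker gene, at 84.6, 211 and 18.9 CPM. These 3 fell in repopulated against control microglia (edgeR adjusted p = 0.0158, 0.00657 and 0.0119). With Y-linked status as a term the count of lower genes in this list was 0, and 1 of all 12505 genes was called. The log2 fold changes under that term were -1.51 for Igf1, -1.04 for Mamdc2 and -1.35 for Gas2l3, against -1.55, -1.09 and -1.32 without it. Ank, a pyrophosphate transporter gene, was at 324 CPM in repopulated, 376 CPM in control and 25.0 CPM in WT microglia, and did not pass against control (adjusted p = 0.542).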

How the data were processed

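In the deposited table each gene has an estimated count (expected count), an FPKM and a TPM for every library. The estimated counts are raw, per the file headers, and with a tolerance of 0.001 20.1% of those above 0 are not whole. FPKM and TPM as deposited, per the file headers, are scaled for length and library size; FPKM were not used, and TPM served only to order levels. HISAT, Bowtie2 and GRCm38.p6 are named in the submitters' processing notes; the quantifier and any use of strand were not given in any source used, so reads of overlapping or antisense genes cannot be told apart. Libraries used 1 ng of RNA, per the labels' protocols. Genes were matched to RefSeq by Entrez identifier (19725 of 19782).

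Counts were rounded and tested with edgeR 4.0.16 (R 4.3.3, limma 3.58.1, statmod 1.5.0): filterByExpr, TMM, robust quasi-likelihood fits of 3 groups over all 10 libraries, Benjamini-Hochberg adjustment over 12505 genes. The prior count was 0.125, a standard error is the size of the log2 fold change divided by the root of F, and intervals are 95%. The biological coefficient of variation was 27.3%. The procedure was tested on simulated data. No pair of libraries agreed within sampling noise.

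The 9 genes, the lists and the tests were chosen with earlier results of these data known, among them the libraries that differ in Y-linked transcripts. Genes named are the 9; for each list the 3 with the smallest p for control against WT and the 2 for repopulated against control; and the 2 profiles nearest to a called member. Alternatives were DESeq2 1.42.0 as scaling and as test, upper-quartile scaling, limma-voom, no filter or 5 CPM in 3 libraries, a prior count of 0.5, a replicate block, Y-linked status (threshold 50 CPM), GC and length correction (per-library spline, 98.4% of tested genes with a value), compared groups alone, each library left out, thresholds of 0.01 and 0.1, and TPM. Some items are not reported here.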

Additional observations from a re-analysis of the deposited data

How the results depend on the processing

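Of 594 refits of the 9 genes (9 genes, 3 comparisons, 22 alternatives), 547 kept direction and side of the threshold, 13 newly passed, 2 no longer passed (both Sall1 in control against WT) and 32 changed sign, all 32 of them uncalled in the main fit. In depth, the 9 had at least 177 counts in every library.

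For the count of the 9 called in control against WT (1), limma-voom gave 2, and leaving out a library gave 1 to 2. The count stayed at 1 without control 1, and without control 1, control 3 and WT 2 together (the 3 libraries low in Y-linked transcripts), but the gene was then Spi1 and not Sall1. For repopulated against WT (0) the count was 1 (Maf) with the DESeq2 test, no filter, the 5 CPM filter, Y-linked status as a term, without those 3 libraries, with the GC and length correction, with the compared groups alone and at an adjusted p under 0.1, and 0 to 1 without single libraries. The cause was not tested. In control against WT limma-voom called 17.7% of all tested genes. In repopulated against WT 5.93% of 13484 genes were called with the DESeq2 test, 2.84% of 18682 with no filter and 5.16% of 9726 with the 5 CPM filter. The share was 3.73% with Y-linked status as a term, 4.94% with the GC and length correction and 3.45% with the compared groups alone. It ran from 2.19% to 5.58% without single libraries. A count of 1 among 9 is near these shares for repopulated against WT. The order of the 3 groups was the same by deposited TPM for 4 of the 9.

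The replicate numbers did not pair the libraries, since same-numbered libraries correlated at -0.105 to 0.071. With the replicate block the homeostatic count for repopulated against control was 0, Sall1 in control against WT had an edgeR adjusted p of 0.0383, and the uncalled log2 fold changes of Irf8 in control against WT (0.0164) and Runx1 in repopulated against WT (0.0105) changed sign; the other calls of the 9 were the same under the block.

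In control against WT, the family list (6) fell to 3 with Y-linked status as a term, without the 3 libraries and at 0.01, and ran from 3 to 8 without single libraries. The other transcription factors (18) gave 9 without the 3 libraries, 7 at 0.01 and 9 to 21 without single libraries, and homeostatic genes (15) 9 at 0.01 and 9 to 17. In repopulated against control, the family list (0) gave 1 with DESeq2 and with the compared groups alone. Other transcription factors (0) gave 4 with DESeq2 and with the compared groups alone, 3 without the 3 libraries, 2 with limma-voom and at 0.1, 1 with no filter, the 5 CPM filter and the GC and length correction, and 0 to 2 without single libraries. Homeostatic genes (1) gave 7 with DESeq2, 5 with the compared groups alone, 4 without the 3 libraries and at 0.1, 2 with limma-voom and no filter, 0 with Y-linked status as a term and at 0.01, and 0 to 4 without single libraries. Disease-associated genes (6) gave 14 with the compared groups alone, 12 with DESeq2, 10 with limma-voom, no filter and at 0.1, 3 without the 3 libraries, 1 at 0.01, 0 with Y-linked status as a term, and 0 to 12 without single libraries. In repopulated against WT, the family list (2) gave 1 with the 5 CPM filter and without the 3 libraries, other transcription factors (5) gave 3 without the 3 libraries and 3 to 6 without single libraries, and homeostatic genes (3) gave 8 with the GC and length correction, 7 with DESeq2, 1 without the 3 libraries and at 0.01, and 1 to 4 without single libraries.

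Uncalled log2 fold changes that changed sign were the following. In control against WT they were Maf (0.0273) and Mef2c (0.0083) without the 3 libraries, Runx1 with upper-quartile scaling (-0.0106), the 5 CPM filter (-0.0024) and the GC and length correction (-0.0619), and Cebpa with that correction (0.1316). Without single libraries Irf8 ran from -0.1199 to 0.0362, Runx1 from -0.0591 to 0.0827 and Cebpa from -0.3435 to 0.093. In repopulated against control, Mef2a (0.1047) and Mef2c (0.1061) changed sign with the GC and length correction. Without single libraries Maf ran from -0.4147 to 0.0345, Mef2a from -0.2063 to 0.0262 and Runx1 from -0.1145 to 0.0272. Bhlhe40 was at 0.3885 with Y-linked status as a term and 0.388 without the 3 libraries, where Ank was at 0.1572. Egr1 was at -0.0076 with DESeq2 size factors, -0.007 with the DESeq2 test, -0.0073 with limma-voom, -0.0126 with Y-linked status as a term, -0.0281 without the 3 libraries, -0.3488 corrected for GC and length, and -0.1561 to 0.2215 without single libraries. In repopulated against WT, Spi1 was at -0.0055 with upper-quartile scaling, -0.0462 with limma-voom, -0.0025 with the 5 CPM filter, -0.1133 corrected for GC and length, and -0.2217 to 0.346 without single libraries. Runx1 ran from -0.069 to 0.0315 without single libraries. Irf3 was at -0.0031 without the 3 libraries, -0.084 corrected for GC and length, and -0.0633 to 0.1472 without single libraries.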
